A study of Mus musculus with 12 samples.

Results

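The yolk sac of Hypb knockout mouse embryos is described here as it went from embryonic day 9.0 (E9.0) to E10.5. Its members are the 6 knockout arrays of a series of 12, chosen by genotype and stage in the sample titles: 3 at E9.0 and 3 at E10.5. The study set Hypb+/+ against Hypb-/- embryos at an early stage and at one close to the death of the mutants, and the 6 wild type arrays, 3 at each stage, serve here as the comparison. Every array held RNA pooled from 4 yolk sacs of 1 genotype, all groups carried the 129Sv/C57BL/6 background, no treatment is labelled, and by the labels the groups differ in genotype and day alone. Hypb is an older name of Setd2, the enzyme that adds the third methyl group to lysine 36 of histone H3 over transcribed genes. The labels do not give which part of the gene was removed, whether the deletion was present in every cell, or the stage in somite pairs.

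The yolk sac is the first organ of blood formation and of nutrient supply in the mouse. Its visceral endoderm faces the mother, takes up protein and lipid and secretes plasma proteins before the liver does, while its mesoderm makes the first red cells, macrophages and megakaryocytes and the vessels that carry them. A second, definitive blood programme then begins beside the primitive one, and the first plexus of vessels is remodelled into larger trunks.

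Values are log2 RMA expression values, read by 1 probe set for each of 18193 genes, so that a difference of 1 is a doubling. They ranged from 2.03 to 14.49 over all arrays, with array medians from 5.27 to 5.34 and Spearman correlations between arrays from 0.973 to 0.994. The number of arrays limits the precision: the median standard error (SE) of a knockout stage change was 0.126 and that of a difference between genotypes 0.178. The 3 knockout arrays at E10.5 spread more than the other groups, with a median SD of 0.162 and 696 genes over an SD of 0.5, against medians of 0.117 to 0.127 and 210 to 279 genes elsewhere. Setd2 itself read 7.54, 7.99 and 7.53 on the E9.0 knockout arrays and 7.77, 7.81 and 8.07 at E10.5. All of these lay below the wild type arrays, which read 9.08, 9.03 and 8.83 and then 8.77, 8.70 and 8.66. Within the knockout its change of 0.20 did not pass the test (adjusted p = 0.333, limma with Benjamini-Hochberg adjustment over all genes, the test behind every adjusted p here). Where its probes lie relative to the deletion is not known here, so the remaining level does not measure intact transcript.

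Between E9.0 and E10.5 most measured members of the interferon-inducible, plasma protein and myeloid gene lists rose in the knockout yolk sac, and 16 of 30 genes of a primitive red cell list fell. Of the 18193 genes 4290 passed an adjusted p of 0.05 in the knockout (23.6%), 2621 higher at E10.5 (14.4%) and 1669 lower (9.17%). At least 2-fold, 504 rose (2.77%) and 133 fell (0.731%), and at least 4-fold, 92 rose and 2 fell. The 3 arrays of one stage lay wholly above or below those of the other for 6288 genes (34.6%), and 134 of the called genes did overlap. Calls were rare among dim genes: of the 4 equal bins by mean level, in the lowest 207 rose and 32 fell of 4549, and in the highest 854 rose and 789 fell of 4548. Without replicate 2 of the E10.5 knockout 3093 genes passed, the fewest with any 1 array left out.

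Much of this change was also seen in the wild type, whose arrays are separate from those of the knockout. There 4044 genes passed (22.2%), 2432 higher (13.4%) and 1612 lower (8.86%). Among the genes that passed, 460 rose at least 2-fold (2.53% of all genes) and 167 fell at least 2-fold (0.918%). The arrays of the stages did not overlap for 7271 genes (40%). The genes called in the same direction in both genotypes numbered 2711, which is 63.2% of the knockout calls and 67.0% of the wild type calls. Across genes, which are not independent replicates, the 2 stage changes had a Pearson r of 0.783 and a Spearman rho of 0.715, and their median absolute sizes were 0.19 and 0.18. Calls in opposite directions were few: Krt73 (named after its values were seen), Myl7 and Tnnt2 rose in the knockout and fell in the wild type, and Lss did the reverse. The test of the difference between the genotypes' stage changes called 34 genes (0.187%), 19 more positive in the knockout (0.104%) and 15 more negative (0.0824%), while 1510 had an unadjusted p under 0.05. All 19 of the first kind rose in the knockout, and all 15 of the second kind rose in the wild type.

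**Figure D1:**
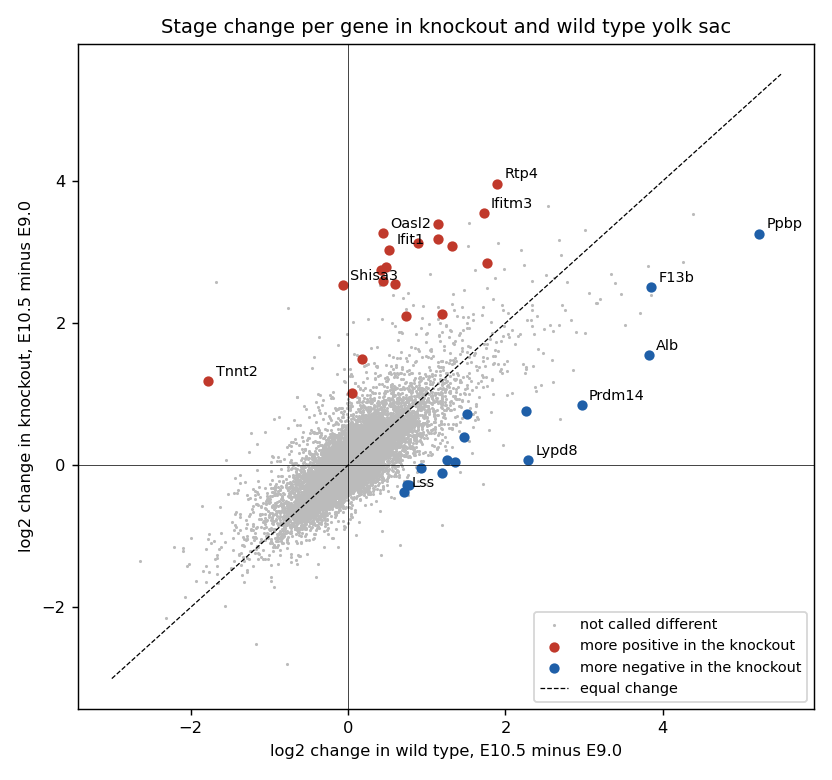
Log2 change from E9.0 to E10.5 per gene in the wild type (x axis) and the knockout (y axis), for 18193 genes; the dashed line marks an equal change. Red points are the 19 genes whose change was called more positive in the knockout and blue points the 15 called more negative; most grey points lie along the dashed line.

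Of the 31 gene lists examined, the interferon-inducible genes had the largest share that rose. These genes are switched on by interferons through STAT and IRF factors, and many of their products block viral replication. Of 39 measured genes of an interferon list 32 rose in the knockout (82.1%, against 14.4% of all genes) and 1, Trim25, fell (by 0.68, named after its value was seen). The median was 1.05 against 0.03 over all genes. In the wild type 19 of the 39 rose and 2 fell, with a median of 0.48. The difference between genotypes was called for 9 of the 39, all more positive in the knockout. The median in the knockout was 1.03 in replicates 1 and 2 alone and 1.24 in replicate 3.

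Short stretches of 5 of these genes' promoters are shown because the difference between genotypes was called for each of them and their windows hold the letters to which interferon-activated factors are known to bind, the interferon-stimulated response element. The letters searched were GAAA, 2 bases of any kind and GAAA again, on both strands, in windows from 250 bases before to 50 after the start of each gene (RefSeq, GRCm38.p6). Capitals mark the match, which here reads on the opposite strand. The places are chr3:142620569-142620648 on the plus strand for Gbp2, chr3:142559964-142560043 on the plus strand for Gbp3, chr19:34640759-34640838 on the plus strand for Ifit1, chr19:34583355-34583434 on the plus strand for Ifit3 and chr12:26456528-26456607 on the minus strand for Rsad2.
Gbp2: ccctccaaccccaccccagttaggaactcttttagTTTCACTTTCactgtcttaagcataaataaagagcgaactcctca
Gbp3: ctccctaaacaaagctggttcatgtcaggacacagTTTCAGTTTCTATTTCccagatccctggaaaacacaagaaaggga
Ifit1: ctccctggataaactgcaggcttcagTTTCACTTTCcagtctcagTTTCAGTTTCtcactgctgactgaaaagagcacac
Ifit3: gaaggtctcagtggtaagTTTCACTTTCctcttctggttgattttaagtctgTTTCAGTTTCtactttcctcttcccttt
Rsad2: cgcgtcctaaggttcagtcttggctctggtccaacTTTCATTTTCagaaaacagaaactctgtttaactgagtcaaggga

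Ifit1, Ifit3 and Gbp3 each hold 2 matches in the stretch, which in Gbp3 overlap, and the other two hold 1. Over all 32851 promoter windows 3.44% hold the motif, and of the 14452 tested genes with a window 3.63% do. A window was found for 30 of the list's members, of which 15 hold it (50%), and among the 25 that rose in the knockout 12 hold it. Of the genes called more positive in the knockout 7 of 15 with a window hold it (46.7%), and of those called more negative 0 of 12. A match describes the letters only.

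Ifit1 and Ifit3 encode proteins that bind foreign RNA. Ifit1 read 3.00, 3.37 and 2.93 on the E9.0 knockout arrays and 6.23, 5.78 and 6.38 at E10.5, while the wild type read 3.29, 2.95 and 3.29 and then 3.86, 3.45 and 3.78. The 3 late knockout arrays stood above all other arrays, and the E9.0 arrays of the genotypes overlapped. The change was 3.03 (SE 0.18) in the knockout against 0.52 in the wild type, and the difference of 2.51 (SE 0.25) passed the test (adjusted p = 0.000996). For Ifit3 the knockout went from 5.18, 5.21 and 4.99 to 8.10, 7.85 and 7.79 and the wild type from 4.85, 4.94 and 5.17 to 5.58, 5.42 and 5.39. Both genotypes rose without overlap between stages, by 2.79 and 0.48, and the difference of 2.31 (SE 0.17) had the joint smallest adjusted p of all genes (8.87e-05).

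Usp18 encodes the protease that removes the interferon-induced modifier ISG15 and damps receptor signalling. It went from 4.61, 4.67 and 4.31 to 8.06, 7.68 and 8.05 in the knockout and from 4.13, 4.82 and 4.31 to 5.83, 5.20 and 5.65 in the wild type, a rise of 3.40 against 1.14. The late knockout arrays again stood above all others, and the difference of 2.26 passed the test (adjusted p = 0.00467). Oasl2, of the oligoadenylate synthetase family, read 3.10, 3.04 and 3.30 in the early knockout and 6.67, 5.98 and 6.59 in the late knockout. Its wild type arrays lay between 3.15 and 4.39, with overlap between stages, and the difference was 2.83 (adjusted p = 0.00467). Rtp4, a chaperone of G protein-coupled receptors, had the largest rise of any gene the naming rule admitted, from 4.42, 4.93 and 4.22 to 8.70, 8.52 and 8.23. It rose in the wild type too, by 1.89 against 3.96 in the knockout (difference 2.07, adjusted p = 0.0437).

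Rsad2 encodes viperin, an antiviral enzyme of the endoplasmic reticulum, and Ifitm3 a membrane protein that hinders viral entry. Rsad2 rose by 3.18 in the knockout, from 6.47, 6.99 and 6.80 to 10.55, 9.52 and 9.72, and by 1.14 in the wild type. Ifitm3 rose by 3.54, from 6.46, 7.23 and 6.91 to 10.46, 10.12 and 10.65, and by 1.72 in the wild type. The differences were 2.04 and 1.82 (adjusted p = 0.0307 and 0.0178), calls lost in 6 and 2 of the 12 fits without 1 array. The late arrays of both genes lay above the early ones in each genotype. Dimmer probe sets of Rsad2 rose by 2.58 and 3.61 in the knockout, but their differences of 0.98 and 1.60 did not pass. The guanylate-binding GTPases of host defence Gbp2, Gbp3 and Gbp7 were also called different, by 2.15, 1.96 and 1.77. Dimmer probe sets of Gbp2 and Gbp7 had differences of 1.83 and 2.16 that did not pass. Gbp2 went from 3.59, 3.82 and 3.46 to 6.97, 5.53 and 6.14 in the knockout, with its highest value in replicate 1, and these genes are alike enough in sequence that their probes may share signal. Ifi202b, a DNA-binding protein of the interferon-inducible HIN family, rose by 3.13 and by 0.89 in the wild type. Parp14 and Tlr3, the receptor for double-stranded RNA, rose by 1.50 and 1.02 in the knockout, while their wild type changes of 0.17 and 0.06 did not pass.

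**Figure D2:**
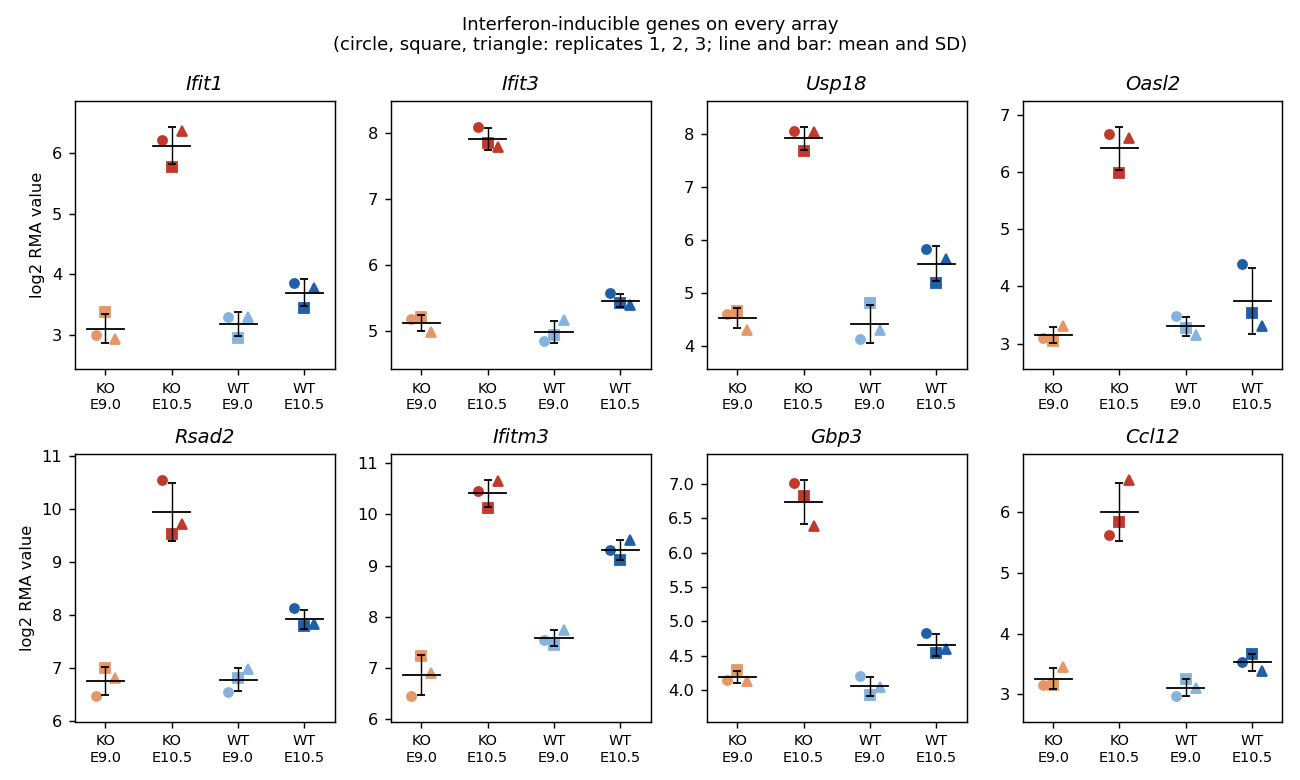
Log2 RMA values of 8 interferon-inducible genes on every array, for knockout (KO) and wild type (WT) at E9.0 and E10.5; points are arrays, lines means and bars SD (n = 3 per group). The 3 late knockout arrays lie highest in every panel, as for Ifit1 at 5.78 to 6.38 against at most 3.86 on any other array.

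The monocyte chemokines Ccl12 and Ccl3 moved in the same way. Ccl12 read 3.16, 3.16 and 3.46 and then 5.63, 5.84 and 6.54 in the knockout, while no wild type array exceeded 3.67. Its rise was 2.74 (SE 0.19) and the difference from the wild type 2.33 (adjusted p = 0.00343). Ccl3 went from 3.16, 3.27 and 3.33 to 5.30, 5.48 and 5.27, and in the wild type from 3.50, 3.41 and 3.43 to 4.26, 4.09 and 4.21. Both genotypes rose without overlap, by 2.10 and 0.74 (difference 1.36, adjusted p = 0.000996).

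Macrophage markers rose over the same interval. All 5 macrophage markers (Csf1r, Cx3cr1, Adgre1, Mrc1 and C1qa) rose in the knockout and 4 of them in the wild type. Their summed level, on a log2 scale, went from 9.16 to 9.61 over the early knockout arrays to 10.4 to 10.6 over the late ones, and from 9.35 to 9.48 to at most 10.1 in the wild type. How far this moved with the interferon and chemokine genes was not tested, and in pooled tissue more cells of a type and more RNA per cell cannot be told apart. Of 35 measured genes of a haematopoietic and myeloid list 21 rose in the knockout (60%, against 14.4% of all genes) and 1, Gfi1b, fell (by 0.84; named after its value was seen), with a median of 0.56. In the wild type 17 rose and 2 fell, with a median of 0.48.

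Csf1r, the receptor that macrophages need for survival, went from 8.26, 7.73 and 7.40 to 9.60, 9.34 and 9.56 in the knockout and from 7.49, 7.24 and 7.37 to 8.68, 8.87 and 8.58 in the wild type. Neither genotype's stages overlapped, and the rises of 1.70 and 1.34 were not called different (0.36, SE 0.25, adjusted p = 0.794). The complement subunit C1qb rose by 2.96 and 2.71, and Ptprc, the pan-leukocyte phosphatase CD45, by 2.41 and 1.33, also without a called difference; a dimmer probe set of Ptprc had a change of -0.04. Tyrobp, the adaptor of myeloid activating receptors, was the list's one called difference: it rose from 4.31, 4.72 and 4.37 to 7.38, 7.32 and 7.24 in the knockout and from 5.01, 5.26 and 4.95 to 6.88, 6.96 and 6.66 in the wild type. The knockout arrays were the lower ones at E9.0 and the higher ones at E10.5, a difference in stage change of 1.09 (adjusted p = 0.0363). Clec7a, the beta-glucan receptor of myeloid cells, rose by 2.13 against 1.19 (difference 0.94, adjusted p = 0.0193). Ms4a6b rose by 3.31 and 3.01, Anxa1, which limits inflammation, by 3.17 and 2.68, and the lysozyme gene Lyz1, whose probes may also read Lyz2, by 3.13 and 1.91.

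Some megakaryocyte transcripts rose in both genotypes, and 1 of them, Ppbp, rose less in the knockout. Of 22 measured genes of a megakaryocyte and platelet list 8 rose (36.4%, against 14.4% of all genes), 3 fell and 11 were not called in the knockout, and 9 rose and 3 fell in the wild type. Pf4, the platelet chemokine CXCL4, went from 6.61, 6.80 and 6.14 to 10.09, 10.42 and 9.99 in the knockout, a rise of 3.65, and from 7.46, 7.43 and 8.86 to 10.74, 10.33 and 10.29 in the wild type. The stages did not overlap, and the difference of 1.11 was not called. Ppbp, which encodes the other abundant platelet chemokine, went from 3.59, 3.48 and 3.51 to 6.19, 7.30 and 6.86 in the knockout and from 3.29, 3.77 and 3.56 to 8.89, 8.66 and 8.75 in the wild type. All late wild type arrays lay above all late knockout arrays, and the rises of 3.26 and 5.23 differed by -1.97 (SE 0.31, adjusted p = 0.0244). The coagulation factor gene F13a1, active in megakaryocytes and macrophages, rose by 2.63 and Plek by 1.50.

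Many regulators and membrane proteins of red cells fell in the knockout. Of 30 measured genes of a primitive erythroid list 16 fell (53.3%, against 9.17% of all genes) and 1, Rhd, rose (by 0.66; named after its value was seen), with a median of -0.67. In the wild type 6 fell and 1 rose, with a median of -0.00, and 0 of the 30 were called different between genotypes. Within replicates 1 and 2 alone 10 of them passed in the knockout, with a median of -0.60. The letters AGATAA, to which GATA factors bind, were found for 7 of the 22 members of this list with a window (31.8%). They were found for 4 of 11 of those that fell and for 9.54% of all tested genes with a window.

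Gata1, the transcription factor required for red cell maturation, read 8.72, 8.56 and 8.96 at E9.0 and 6.99, 7.88 and 7.50 at E10.5 in the knockout. The wild type read 8.74, 8.36 and 8.59 and then 8.10, 7.65 and 7.77. Both genotypes fell without overlap, by 1.29 (SE 0.20) and by 0.72, and the difference of -0.57 (SE 0.29) did not pass (adjusted p = 0.648). Its cofactor Zfpm1 fell by 1.54, from 8.50, 8.26 and 9.54 to 6.78, 7.27 and 7.62, and by 1.35 in the wild type. Tal1, which founds the blood lineage, went from 8.76, 8.59 and 8.59 to 6.98, 7.67 and 8.13 in the knockout, lowest in replicate 1, and its fall of 1.05 passed where that of 0.53 in the wild type did not (adjusted p = 0.0978). The membrane skeleton gene Sptb fell by 0.81, Gypc, a glycophorin, by 0.65 and Cited4 by 1.39, though a dimmer probe set of Cited4 changed by 0.11.

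The embryonic globins stayed near the top of the array's range. Hbb-bh1 went from 14.44, 14.38 and 14.42 to 14.09, 14.40 and 14.30 in the knockout, a change of -0.15 that did not pass (adjusted p = 0.285). Hba-x changed by -0.23 and Hbb-y by -0.09, and neither passed (adjusted p = 0.0917 and 0.564). The lowest Hbb-bh1 and Hba-x values were those of replicate 1 at E10.5, the array on which Gata1 and Tal1 were also lowest. Differences at such levels are compressed on an array. Of the 5 measured red cell markers only Slc4a1, the band 3 anion exchanger, fell, and their summed log2 level lay at 15.8 to 15.9 on the early and 15.6 to 15.8 on the late knockout arrays. The probe set used for the adult globin gene Hba-a1 read 3.20 to 3.71 in the knockout, near the floor, with a change of 0.06. Probe sets that name more than 1 gene were left out, so this reading does not settle the adult globin level.

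Of 23 measured genes of haem synthesis and iron handling 6 fell (26.1%, against 9.17% of all genes), 2 rose and 15 were not called in the knockout, with a median of -0.25, and 5 fell and 2 rose in the wild type. Cpox, the enzyme that makes protoporphyrinogen, fell by 1.64, from 10.18, 10.36 and 10.96 to 8.60, 9.57 and 8.40. Alad, the second enzyme of the pathway, fell by 1.41, from 11.20, 11.15 and 11.34 to 9.82, 9.66 and 9.99. In the wild type they fell by 1.32 and by 0.97, and no stage overlapped in the knockout for either gene. Flvcr1, a haem exporter, and Snx3, which recycles the transferrin receptor, each fell by 0.52.

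**Figure D3:**
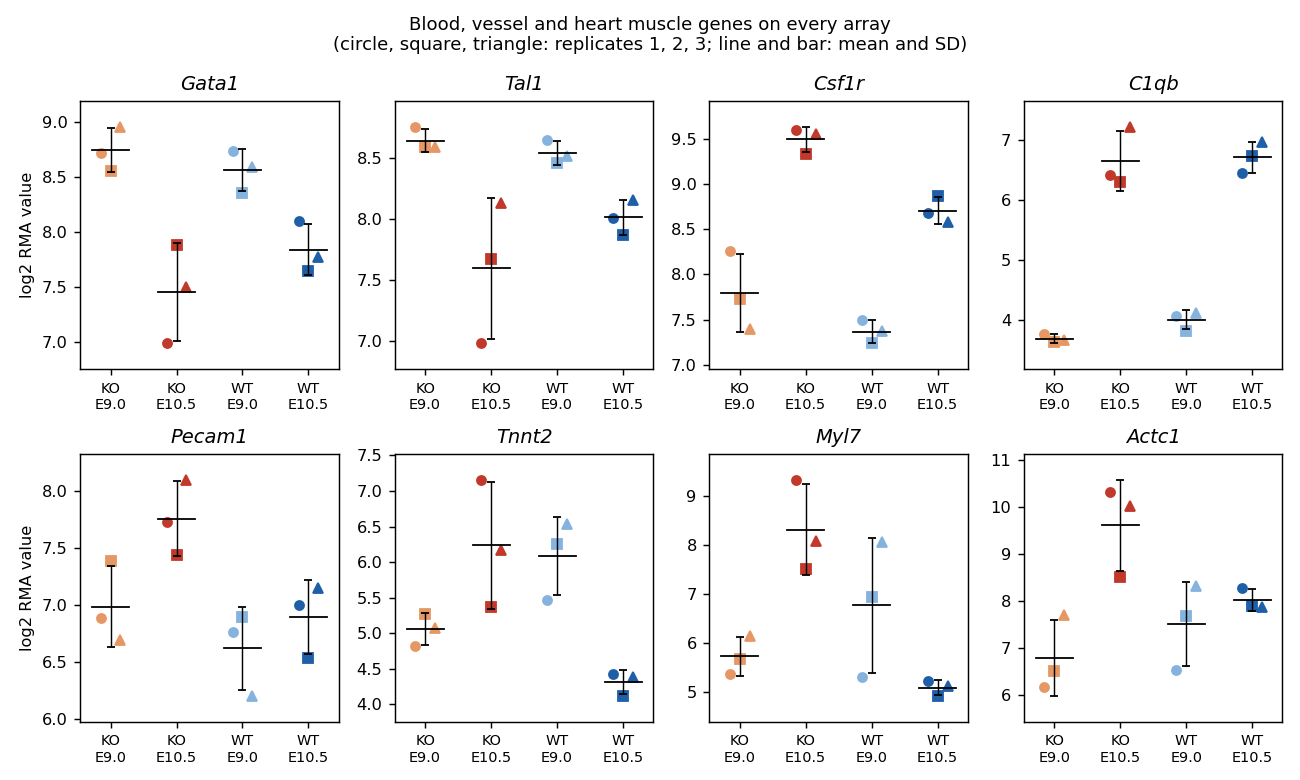
Log2 RMA values of blood, vessel and heart muscle genes on every array, for knockout (KO) and wild type (WT) at E9.0 and E10.5; points are arrays, lines means and bars SD (n = 3 per group). Gata1 and Tal1 are lowest on late knockout replicate 1, at 6.99 and 6.98, and the heart muscle gene Myl7 is highest on the same array, at 9.33.

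Most plasma protein genes, which the visceral endoderm is known to express, rose in both genotypes. Of 33 measured 22 rose (66.7%) and 0 fell in the knockout, against 14.4% and 9.17% of all genes, with a median of 0.72. In the wild type 24 rose and 0 fell, with a median of 0.95. The difference was called for 2 of them, Alb and F13b, both with the smaller rise in the knockout. Alb, the serum albumin gene, went from 4.27, 4.26 and 4.30 to 5.27, 6.11 and 6.10 in the knockout and from 4.27, 3.84 and 4.55 to 8.07, 7.87 and 8.19 in the wild type. No late knockout array reached any late wild type array, and the rises of 1.55 and 3.82 differed by -2.27 (SE 0.31, adjusted p = 0.00987). F13b, which carries coagulation factor XIII in plasma, went from 4.00, 3.98 and 3.52 to 6.12, 6.51 and 6.38, and for the wild type from 3.35, 3.68 and 3.55 to 7.31, 7.57 and 7.26. Its rises of 2.50 and 3.85 differed by -1.35 (adjusted p = 0.0307).

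Other plasma proteins rose by amounts that were not called different. Kng1, the kininogen precursor, went from 8.17, 7.81 and 7.31 to 11.24, 11.28 and 11.35 in the knockout, a rise of 3.53 against 4.38. The late arrays lay far above the early ones in both genotypes. Serpina1c, of the alpha-1 antitrypsin family whose members are close in sequence, rose by 2.86 against 4.25 (difference -1.39, adjusted p = 0.0509), and Serpind1, heparin cofactor II, by 2.42 against 3.07. Afp, the main fetal plasma protein, read 13.94, 13.87 and 13.73 and then 14.14, 14.15 and 14.23. Its rise of 0.33 (adjusted p = 0.0216) was like the 0.37 of the wild type in size, and it was lost in 2 of the 12 fits without 1 array, at most to an adjusted p of 0.0851 without replicate 3 of the E9.0 knockout (0.27). No other probe set of Afp passed in the knockout: bright ones changed by 0.07 and 0.11, and dim ones by 0.39 and 0.20.

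Among 28 measured genes known as factors and markers of visceral endoderm 13 fell (46.4%) and 4 rose (14.3%) in the knockout, against 9.17% and 14.4% of all genes. The median was -0.30, and in the wild type 8 fell and 4 rose. Dab2, the endocytic adaptor of cubilin and megalin, fell by 0.78, from 12.91, 13.03 and 13.01 to 12.06, 12.08 and 12.47, and Cited1 by 0.66. The nuclear bile acid receptor Nr1h4 rose by 1.89, from 6.31, 6.07 and 5.68 to 7.87, 8.23 and 7.62, and the liver factor Foxa3 by 0.88. The falls of Dab2 and Cited1 and the rises of Nr1h4 and Foxa3 were without overlap, and 0 of the 28 were called different between genotypes. Of the 6 endoderm markers, by the probe sets used, Afp rose, Cubn, Amn and Hnf4a fell, and Ttr and Apob did not pass.

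Of 40 measured genes of apical uptake and lysosomes 7 rose (17.5%) and 8 fell (20%), against 14.4% and 9.17% of all genes, with Lamp2, a lysosomal membrane protein, up by 0.73 and the sulphate transporter Slc13a4 down by 0.99. Cltrn, the collectrin that carries amino acid transporters to the surface, was the called difference of this list: it rose from 5.07, 5.48 and 4.73 to 5.68, 5.69 and 6.18 in the knockout and from 5.72, 5.85 and 5.55 to 8.03, 8.03 and 7.84 in the wild type. The late wild type arrays stood above all others (difference -1.50, adjusted p = 0.0387), a call lost in 10 of the 12 fits without 1 array, with an adjusted p of up to 0.118 without replicate 2 of the late wild type. Of 22 apolipoprotein and lipid export genes 4 rose (18.2%) and 3 fell (13.6%), shares near those of all genes: Apoa2 rose by 0.79, Apoc1 by 1.06 and the fatty acid carrier Cd36 by 1.60, with Dgat2, the last step of triglyceride synthesis, down by 0.62. Of 30 detoxification genes 12 rose (40%) and 1 fell (3.33%) in the knockout, against 14.4% and 9.17% of all genes, and 15 rose and 2 fell in the wild type. In the knockout the glutathione transferases Gsta3 and Gstm2 rose by 2.80 and 1.21, Mgst2 by 1.86, and the alcohol dehydrogenase Adh1 by 2.04.

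More genes of sterol synthesis were called higher in the wild type than in the knockout. The enzymes of this pathway build cholesterol and are switched on together by SREBP factors when sterol is short. Of 20 measured genes 15 rose and 0 fell in the wild type, with a median of 0.77. In the knockout 7 rose (35.0%) and 1 fell (5%), against 14.4% and 9.17% of all genes, with a median of 0.03. The difference was called for 4 of the 20, Idi1, Lss, Msmo1 and Insig1, all more negative in the knockout. Each of these 4 calls was lost in 9 of the 12 fits without 1 array.

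Idi1, isopentenyl diphosphate isomerase, read 10.28, 10.27 and 10.16 at E9.0 and 9.75, 10 and 10.11 at E10.5 in the knockout, and 9.54, 9.68 and 9.26 and then 10.27, 10.17 and 10.36 in the wild type. The early knockout arrays were already above the early wild type arrays, and the late arrays of the genotypes did not overlap, with the knockout lower. The changes of -0.28 (adjusted p = 0.124) and 0.77 differed by -1.06 (SE 0.18, adjusted p = 0.0363). Lss, which closes the first sterol ring system, went from 8.76, 8.68 and 8.98 to 8.31, 8.35 and 8.62 in the knockout and from 7.90, 8.26 and 8.29 to 8.86, 8.90 and 8.83 in the wild type. It stood higher in the knockout at E9.0 and lower at E10.5 on every array, a difference of -1.09 (adjusted p = 0.0363). Its own fall of 0.38 was lost in 9 of the 12 fits without 1 array, most without replicate 3 of the E9.0 knockout (fell by 0.29, adjusted p = 0.168). Dimmer probe sets of Lss had differences of -0.47 and -1.13 that did not pass, while the dimmer probe set of Idi1 had -1.44, which passed. Insig1, the sterol sensor that holds SREBP back, changed by -0.27 and 0.74, and Msmo1, the methylsterol oxidase, by 0.40 and 1.47. The Msmo1 rise in the knockout was lost in 7 such fits, most without replicate 3 of its E9.0 arrays (0.34, adjusted p = 0.126), and a dimmer probe set changed by -0.51. Fdft1, squalene synthase, rose by 0.82 in the knockout against 1.18 in the wild type, without a called difference. Another bright probe set of Fdft1 rose by 0.80 and 1.33, while much dimmer ones changed by -0.01 and 0.07 in the knockout.

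**Figure D4:**
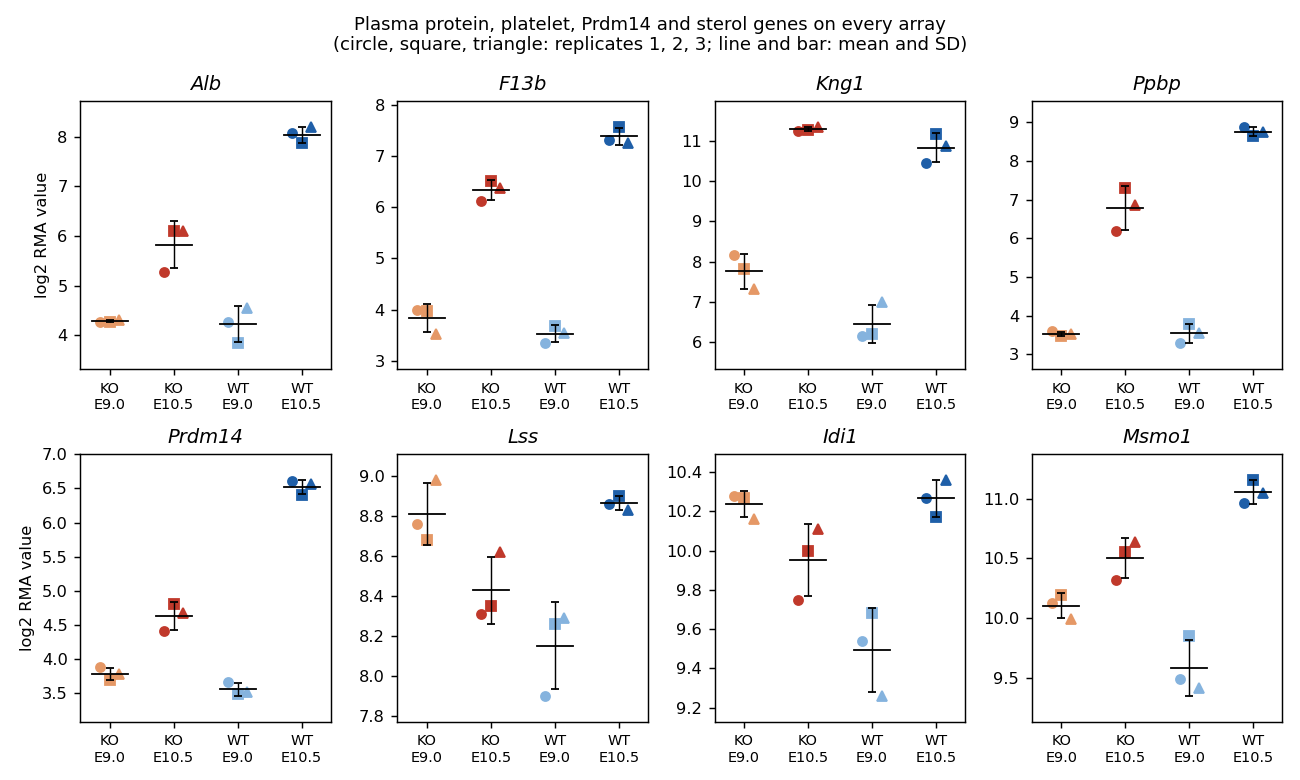
Log2 RMA values of plasma protein genes (Alb, F13b, Kng1), the platelet gene Ppbp, Prdm14 and sterol synthesis genes (Lss, Idi1, Msmo1) on every array, for knockout (KO) and wild type (WT) at E9.0 and E10.5; points are arrays, lines means and bars SD (n = 3 per group). In Alb, F13b and Ppbp the genotypes overlap at E9.0, and in these and Prdm14 the late knockout arrays lie below the late wild type arrays; in Lss and Idi1 the knockout starts higher and ends lower.

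Further genes rose less in the knockout than in the wild type. Prdm14, a regulator of germ cells and pluripotency, read 3.88, 3.70 and 3.78 and then 4.41, 4.81 and 4.67 in the knockout, and 3.67, 3.49 and 3.52 and then 6.61, 6.41 and 6.56 in the wild type. The late arrays did not overlap, and the rises of 0.84 and 2.97 differed by -2.12 (SE 0.16), with the joint smallest adjusted p of all genes (8.87e-05). Lypd8, a secreted protein that holds bacteria away from gut epithelium, stayed at 3.98 to 4.66 on all knockout arrays and went from 4.30, 4.18 and 4.58 to 6.25, 6.64 and 7.03 in the wild type (difference -2.21, adjusted p = 0.0117). The drug efflux pump Abcb1b, the actin-bundling Misp, complement C2 and the inflammasome receptor Naip6 rose in the wild type by 1.36, 1.19, 1.26 and 0.93. Their knockout changes, from -0.11 to 0.08, did not pass, but a dimmer probe set of C2 rose in the knockout by 0.55 (adjusted p = 0.0311), without a called difference (adjusted p = 0.0647). Fuom, a fucose mutarotase, rose by 0.72 in the knockout and by 1.51 in the wild type.

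Of 38 measured endothelial genes 4 rose and 5 fell (13.2%) in the knockout, against 14.4% and 9.17% of all genes. In the wild type 2 rose and 16 fell, the median was -0.42 against -0.19 in the knockout, and 0 differences were called. Emcn, a sialomucin of veins and capillaries, rose from 6.88, 7.57 and 7.20 to 8.57, 8.51 and 8.59, by 1.34 against 0.78 in the wild type. Pecam1, the junction protein CD31, read 6.88, 7.38 and 6.69 and then 7.73, 7.44 and 8.10, a rise of 0.77 that was lost in 4 of the 12 fits without 1 array, most without replicate 3 of the E9.0 knockout (0.63, adjusted p = 0.120). Kdr, the main VEGF receptor, read 8.58, 8.62 and 8.09 and then 8.18, 7.80 and 8.34, with overlap, and its change of -0.32 did not pass (adjusted p = 0.316). Aplnr, the apelin receptor, fell by 0.89 and by 1.00 in the wild type, and Icam2 rose by 0.71.

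Of 42 measured genes of vessel signalling 13 rose (31.0%) and 7 fell (16.7%) in the knockout, against 14.4% and 9.17% of all genes. In the wild type 4 rose and 10 fell. Vegfa, the ligand of Kdr, changed by -0.25 (adjusted p = 0.139), from 8.64, 8.57 and 8.38 to 8.21, 8.10 and 8.53. Angpt1, the ligand of Tek that steadies vessels, rose from 6.46, 6.84 and 6.19 to 8.12, 7.90 and 7.64, by 1.39 against 0.54 in the wild type (difference 0.85, adjusted p = 0.304). The stages overlapped for Vegfa, while the late arrays of Angpt1 lay above the early ones. The guidance ligand Sema3c rose by 2.53, from 3.32, 3.57 and 3.49 to 5.83, 5.62 and 6.52, and the BMP target Id3 fell by 0.83. Of 25 Notch, arterial and venous genes 2 rose (8%) and 3 fell (12%), against 14.4% and 9.17% of all genes. The chemokine Cxcl12 rose by 1.10 and its receptor Cxcr4 by 0.75. The venous receptor Ephb4 and the guidance receptors Unc5b and Nrp2 fell by 0.78, 0.65 and 0.64. The Cxcr4 rise was lost in 5 fits without 1 array, most without replicate 1 of the late knockout (0.55, adjusted p = 0.136). Ephb4 was lost in 2 such fits, most without replicate 2 of the late knockout (fell by 0.67, adjusted p = 0.0732), and Nrp2 only without that array (fell by 0.53, adjusted p = 0.0506).

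Of 36 measured mesenchymal and smooth muscle genes 15 rose in the knockout (41.7%, against 14.4% of all genes) and 1, Hand1, fell, with a median of 0.29, and 7 rose and 5 fell in the wild type. Postn, a matricellular protein of fibroblasts, went from 10.52, 10.80 and 10.11 to 12.35, 12.40 and 12.56, a rise of 1.96 against 1.25. Dcn and Lum, small proteoglycans that order collagen, rose by 2.19 and 1.16, and Myl9, the smooth muscle light chain, by 1.43. These rises were without overlap between the knockout stages, and the wild type rose too, with no called difference. Acta2, smooth muscle actin, rose by 0.62, from 11.89, 11.80 and 12.19 to 12.61, 12.32 and 12.81, and its wild type change of 0.13 did not pass (difference 0.49, adjusted p = 0.529). Hand1 fell by 0.63, a call lost in 4 fits without 1 array, most without replicate 3 of the E9.0 knockout (fell by 0.42, adjusted p = 0.137). Of 36 collagen and basement membrane genes 9 rose (25.0%) and 1 fell (2.78%), against 14.4% and 9.17% of all genes. The cross-linking enzyme Lox rose by 1.85, Col6a3 by 1.75, Col5a2 by 1.02 and Thbs2 by 0.89. Cav1, the coat protein of caveolae, was among the largest rises of all, from 5.32, 5.74 and 5.15 to 9.68, 7.74 and 9, and its rise of 3.40 was not called different from the 1.54 of the wild type (adjusted p = 0.243).

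Heart muscle transcripts were read in these yolk sac pools. Of 24 measured heart muscle genes 9 rose (37.5%, against 14.4% of all genes) and 0 fell in the knockout, and 0 rose and 3 fell in the wild type. Myl7, the atrial light chain, read 5.37, 5.68 and 6.15 at E9.0 and 9.33, 7.52 and 8.07 at E10.5 in the knockout, and 5.32, 6.95 and 8.05 and then 5.24, 4.93 and 5.12 in the wild type. The early wild type arrays were themselves far apart, and the difference of 4.25 (SE 0.80) missed the threshold (adjusted p = 0.0514). Tnnt2, cardiac troponin T, read 4.82, 5.27 and 5.07 and then 7.16, 5.37 and 6.17 in the knockout and 5.47, 6.25 and 6.54 and then 4.43, 4.12 and 4.39 in the wild type. Its difference of 2.95 was called (adjusted p = 0.0436), and its rise in the knockout of 1.18 was lost in 5 fits without 1 array, most without replicate 1 of the late knockout (0.72, adjusted p = 0.112). Actc1, cardiac actin, rose by 2.82, from 6.16, 6.51 and 7.70 to 10.31, 8.50 and 10.01, Myl4 by 2.21 and the cardiac stress protein Ankrd1 by 2.40. Ankrd1 is also on the list of YAP targets given below. Of the 5 defining heart markers 4 rose in the knockout, and Nppa read 3.10 and 3.21 on average, near the floor. Their summed log2 level lay at 7.31 to 8.36 on the early and 9.24 to 11.1 on the late knockout arrays, and at 7.59 to 9.45 and 8.23 to 8.60 in the wild type. Whether heart tissue was carried over in dissection was not tested.

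Genes of neural and somite tissue were called no more often than genes at large. Of 28 measured 3 rose (10.7%) and 0 fell, against 14.4% and 9.17% of all genes. The 3 were Crabp1, up by 1.37, Hoxb1 by 0.38 and Meox1 by 0.38. Crabp1 read 5.66, 7.71 and 7.45 on the late knockout arrays, so that replicate 1 lay at the early level, and its call was lost in 9 fits without 1 array, most without replicate 2 (0.99, adjusted p = 0.187). Hoxb1 and Meox1 were each lost in 3 such fits, most without replicates 3 and 2 of the E9.0 knockout (0.33 and 0.32, adjusted p = 0.105 and 0.0752). Of the 2 measured trophoblast and decidua markers neither passed, and their summed log2 level ranged from 7.85 to 9.74 on the early and 7.23 to 9.49 on the late knockout arrays. Retinoid genes included both directions, as 6 of 26 rose (23.1%) and 1 fell (3.85%), against 14.4% and 9.17% of all genes. The synthesising enzyme Aldh1a2 rose by 2.05, from 3.73, 3.79 and 3.96 to 6.03, 5.58 and 6.03. The receptor Rarb rose by 0.88 and the retinol dehydrogenase Rdh10 fell by 0.79. Shisa3, an inhibitor of Wnt and FGF receptors, rose from 3.62, 3.42 and 3.58 to 6.49, 5.45 and 6.28 in the knockout and lay at 3.45 to 4.35 on all wild type arrays (difference 2.59, adjusted p = 0.00987).

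Stress and metabolic lists held calls in both genotypes. Of 32 measured p53 target and apoptosis genes 12 rose (37.5%) and 0 fell in the knockout, against 14.4% and 9.17% of all genes. In the wild type 11 rose and 1 fell. Pmaip1, the BH3-only protein Noxa, rose by 1.96 and 1.98, Trp53inp1 by 0.97 and 1.19, and Ccng1 by 0.88 and 0.56. Eda2r, a p53-induced death receptor, went from 5.55, 5.49 and 5.86 to 6.73, 6.67 and 7.17 in the knockout, a rise of 1.22, and its wild type change of 0.25 did not pass (difference 0.98, adjusted p = 0.175). Of 38 glycolysis and hypoxia genes 10 rose (26.3%) and 5 fell (13.2%) in the knockout, against 14.4% and 9.17% of all genes. In the wild type 2 rose and 10 fell, with 0 called differences. Ddit4, an inhibitor of mTOR signalling induced by low oxygen, went from 4.57, 4.88 and 5.05 to 6.70, 6.62 and 7.24 in the knockout and from 4.44, 4.17 and 5.46 to 4.57, 4.82 and 4.86 in the wild type. Only the knockout stages were apart, and the difference of 1.96 did not pass (adjusted p = 0.0707). Ankrd37 rose by 1.30 and the demethylase Kdm3a by 0.69, both known hypoxia targets, and Pfkfb4, which sets the pace of glycolysis, fell by 0.88.

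Of 38 measured genes of oxidative phosphorylation 10 rose (26.3%) and 3 fell (7.89%) in the knockout, against 14.4% and 9.17% of all genes. In the wild type 17 rose and 0 fell, and the knockout changes were at most 0.55 in size. Atp5o, of ATP synthase, rose by 0.42 and the complex I subunits Ndufs4 and Ndufa5 by 0.46 and 0.45, while Cyc1, cytochrome c1, fell by 0.55. Of 45 cell cycle and replication genes 7 rose (15.6%) and 12 fell (26.7%), against 14.4% and 9.17% of all genes. The phosphatase Cdc25a fell by 1.02 and Cdc20 by 0.55, while the mitotic genes Kif20a and Bub1 rose by 0.51 and 0.42. The E2F letters TTTCCCGC were found for 4 of the 34 members of that list with a window (11.8%). They were found for 1 of 8 of those that fell, 0 of 6 of those that rose and 1.87% of all tested genes with a window. Of 35 genes of the unfolded protein and amino acid response 4 rose (11.4%) and 6 fell (17.1%), against 14.4% and 9.17% of all genes. Ddit3, which encodes CHOP, rose by 0.76 and Shmt2, of serine metabolism, fell by 0.74. A dimmer probe set of Ddit3 changed by -0.21. The glutathione-degrading Chac1 rose by 0.73 in the knockout and changed by -0.36 in the wild type, without passing there (difference 1.09, adjusted p = 0.0514). Of 22 ribosomal protein genes 1 was called in each direction (4.55% each), both shares below those of all genes, with a median of 0.04.

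Of 23 measured enzymes of H3K36 methylation and their partners 5 fell in the knockout (21.7%, against 9.17% of all genes) and 1 rose. Dnmt3b, the de novo DNA methyltransferase whose PWWP domain binds methylated H3K36, read 9.87, 9.77 and 9.76 and then 8.33, 7.78 and 7.73 in the knockout, a fall of 1.85 against one of 2.07 in the wild type. No arrays overlapped between stages, and no gene of the list was called different between genotypes. Dnmt1, which maintains DNA methylation, fell by 0.56, the H3K36 methyltransferase Nsd2 by 0.41 and the demethylase Kdm4c rose by 0.55. No other probe set of Nsd2 passed in the knockout: the brightest of them changed by -0.18 and the rest by -0.17, -0.20 and 0.18. Lin28a and Igf2bp1, RNA-binding proteins of early tissue, fell by 0.87 and 0.81. A dimmer probe set of Lin28a had a far larger knockout change, -3.12 (adjusted p = 0.000113), with a wild type change of -2.46. Igfbp3, which binds insulin-like growth factors, rose by 1.00. Its wild type change of -0.39 did not pass (difference 1.38, adjusted p = 0.123). Of 31 imprinted genes 6 rose (19.4%) and 2 fell (6.45%), against 14.4% and 9.17% of all genes. Those that fell were Peg10, by 1.02, and Igf2r, by 0.54. The Igf2r call was lost in 2 fits without 1 array, most without replicate 2 of the late knockout (fell by 0.45, adjusted p = 0.0647). A dimmer probe set of Igf2r changed by 0.13.

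YAP, the growth regulator of the Hippo pathway, and its DNA-binding TEAD partners had a list of 28 measured genes. Of these 6 rose (21.4%) and 6 fell (21.4%), against 14.4% and 9.17% of all genes. Ankrd1 rose by 2.40 and the receptor kinase Axl by 2.13, while Yap1 fell by 0.59 and Crim1 by 1.16. Dimmer probe sets of Yap1 and Crim1 changed by -0.17 and -0.46 and did not pass. Of 27 germ cell genes 2 rose (7.41%) and 2 fell (7.41%) in the knockout, both shares below those of all genes. The meiotic Sycp2 rose by 0.41 and Tdrd12 by 0.70, and Rnf17 fell by 0.89 and Sycp3 by 0.81. Tdrd12 was lost in 3 fits without 1 array, most without replicate 2 of the late knockout (0.54, adjusted p = 0.0959), and Sycp3 in 4, most without replicate 3 of the E9.0 knockout (fell by 0.68, adjusted p = 0.0830). Of 20 genes of parietal endoderm, trophoblast and decidua 3 rose (15%) and 2 fell (10%), shares near those of all genes. Among them the hormone gene Sct rose by 1.22 and Wnt4 by 1.04, and Cited2 fell by 1.23.

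**Figure D5:**
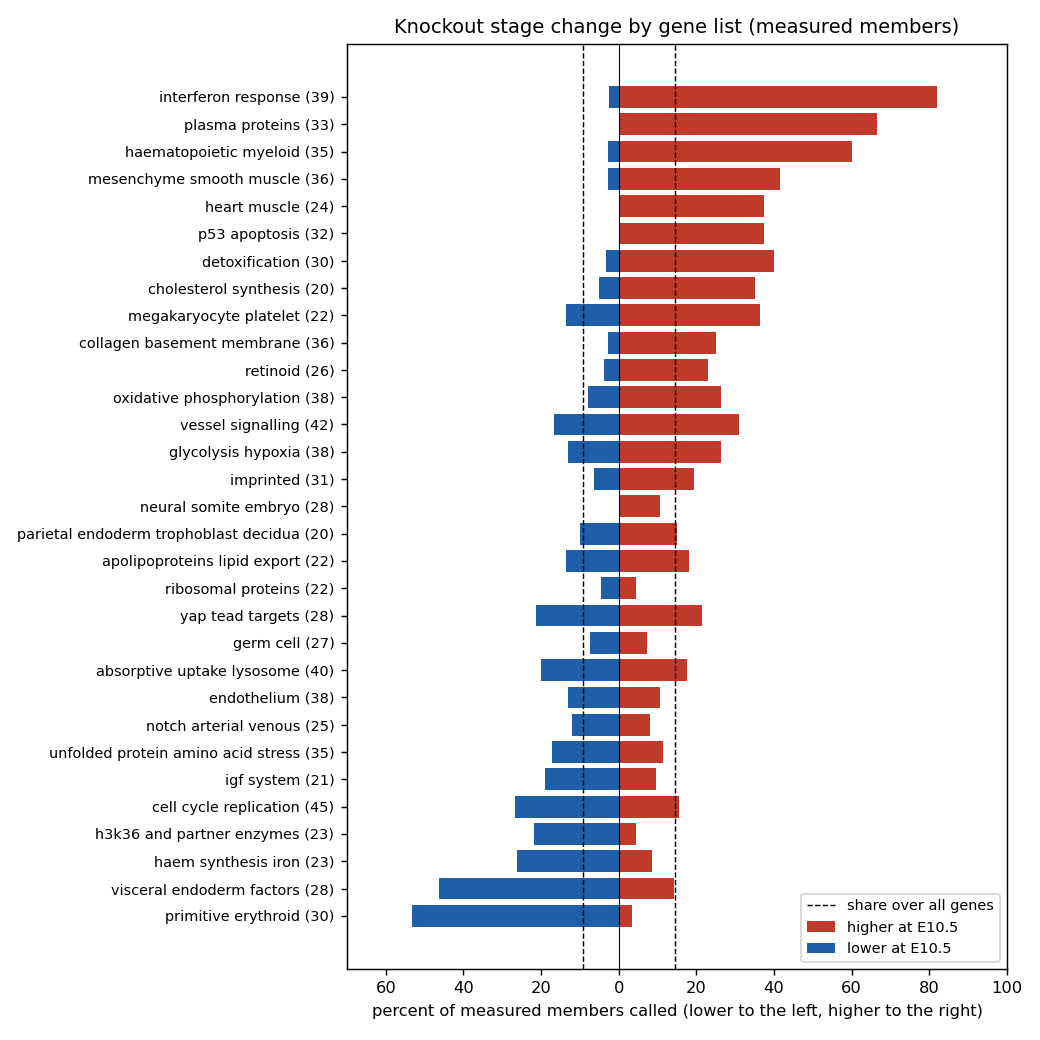
Percent of the measured members of each of 31 gene lists that passed the test in the knockout, higher at E10.5 to the right and lower to the left, with the number measured in brackets. Dashed lines give the shares over all genes, 14.4% and 9.17%; interferon response reaches 82.1% to the right and primitive erythroid 53.3% to the left.

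The largest falls outside these lists were of mixed function. Tlcd4 went from 8.72, 8.41 and 8.67 to 5.69, 6.30 and 6.27 in the knockout, a fall of 2.51, and fell by 1.17 in the wild type (difference -1.34, adjusted p = 0.0644). The zinc finger gene Zfp934 fell by 2.14, and by 2.31 in the wild type, and the actin-recycling Cap1 by 1.98 and by 1.56. The stages did not overlap in the knockout for any of them. Sgk1, a kinase of ion transport and cell survival, went from 9.75, 9.91 and 9.98 to 8.21, 8.35 and 8.36, a fall of 1.57, while the wild type change of -0.41 did not pass (difference -1.16, adjusted p = 0.158). Prokr1, a receptor of prokineticins, fell by 1.71, but a dimmer probe set changed by 0. Amot, a scaffold of tight junctions that binds YAP, fell by 1.47, Prss12 by 1.63, the Wnt coreceptor Lrp5 by 1.63, Nefm by 1.49 and Ago2, of RNA silencing, by 1.53. Agtr1a and Scube2 fell by 1.57 and 1.50, each with 1 high early array, replicate 3, at 7.62 and 8.15. Without that array Scube2 fell by 0.91 (adjusted p = 0.0707) and Ago2 by 1.35 (adjusted p = 0.0564), the calls being lost in 4 and 1 fits. Agtr1a was lost in 2, most in adjusted p without replicate 3 of the late knockout (fell by 1.35, adjusted p = 0.0604), and without the high early array it fell by 0.93 (adjusted p = 0.0432).

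The calls of a difference between genotypes depended on single arrays more than the stage changes did. Without any 1 of the 12 arrays, 139 of the 160 named knockout stage calls held in every fit, against 12 of the 34 differences. Those 12 were Alb, Ccl12, Ccl3, Gbp3, Gbp7, Ifi202b, Ifit1, Ifit3, Oasl2, Prdm14, Shisa3 and Usp18. The shares that held are of unlike sets, as most of the 160 were named for a large change or small p, while the 34 are all called differences. Without replicate 2 of the late wild type 12 of the 34 remained and without replicate 1 of the early knockout 16, and the total ranged from 12 to 90, the highest without replicate 2 of the late knockout. In the fits where single calls were lost, the Lss, Idi1, Insig1 and Msmo1 differences had adjusted p-values of up to 0.116, 0.114, 0.118 and 0.118, and those of Tnnt2, Gbp2, Rtp4, Ppbp and Tyrobp up to 0.127, 0.127, 0.127, 0.0918 and 0.114.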

How the data were processed

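Affymetrix whole-genome mouse expression arrays (single colour) were hybridised with biotinylated cRNA from 5 micrograms of total RNA, per the labels' protocols. The authors deposited log2 values, for which the submitters' processing notes name RMA; the version is not given in the sources used here. RMA forces 1 distribution on all arrays, compresses dim changes and gives no detection call, and the arrays' scanner output was not used here.

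Of 45101 probe sets 64 controls were left out, and 34945 carried 1 symbol in the platform annotation. Each of 18193 genes was read by its brightest such probe set, by the mean of the 12 arrays. limma 3.58.1 (R 4.3.3) fitted a mean for each group over the 12 arrays (8 residual and 4.56 prior degrees of freedom); tests were two-sided with Benjamini-Hochberg adjustment and a threshold of 0.05. The arrays' replicate numbers, taken from the titles, did not pair the samples. On simulated data of 18193 genes, 58 of 67 knockout stage changes of 1 and 30 of 67 of 0.5 were recovered, and 46 of 67 and 3 of 67 for the difference.

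The members and the 31 gene lists (963 genes, 886 measured) were chosen with earlier results of these data known. Named are the 15 largest rises and falls in the knockout without overlap of arrays, the 10 largest differences in each direction, up to 4 members per list by smallest p (all called where at most 5 were), and 14 genes always included; 2 clone or microRNA symbols were passed over, and the other 9 differences were added after their values were seen. List counts carry no test. Control probe sets set replicate 3 apart: BioC minus BioB was 0.055 and 0.14 in replicate 3 of the E9.0 knockout and wild type and 1.54 to 1.71 elsewhere, and at E10.5 the dap control read higher at its 3' end than its 5' end by 1.87 and 1.85 in replicate 3 and by 1.23 to 1.44 on the other arrays of that stage, a split not named in the labels. Alternatives were a replicate block, replicate 3 as a block, further normalisation, other probe set choices, a filter on dim genes and each array left out.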

Additional observations from a re-analysis of the deposited data

Results flagged for a closer look

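For 34 genes the change from E9.0 to E10.5 differed between the genotypes by the test of that difference (limma, adjusted p under 0.05), given here as knockout minus wild type on the log2 scale. Among interferon-inducible genes the difference was 2.83 for Oasl2, 2.51 for Ifit1, 2.31 for Ifit3, 2.26 for Usp18, 2.24 for Ifi202b and 2.07 for Rtp4. It was 2.15 for Gbp2, 1.96 for Gbp3, 1.77 for Gbp7, 2.04 for Rsad2, 1.82 for Ifitm3, 1.33 for Parp14 and 0.97 for Tlr3. Among genes of monocytes and macrophages it was 2.33 for Ccl12, 1.36 for Ccl3, 1.09 for Tyrobp and 0.94 for Clec7a. The heart muscle gene Tnnt2 had a difference of 2.95 and Shisa3 one of 2.59.

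In the other direction the plasma protein genes Alb and F13b had differences of -2.27 and -1.35, complement C2 one of -1.18 and the platelet gene Ppbp one of -1.97. The sterol genes Lss, Msmo1, Idi1 and Insig1 had -1.09, -1.07, -1.06 and -1.02. The remaining values were -2.21 for Lypd8, -2.12 for Prdm14, -1.50 for Cltrn, -1.32 for Abcb1b, -1.30 for Misp, -0.97 for Naip6 and -0.79 for Fuom.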

How the results depend on the processing

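The counts of stage calls stayed within 1.5 times the reported ones under every alternative, 3093 to 4790 in the knockout and 2911 to 4513 in the wild type without 1 array. The count of differences (34) was 61 with a replicate block, 69 and 91 with replicate 3 as a block pooled over stages or at each stage, 12 to 90 without 1 array, and 0 among the 9095 genes above the median level, where limma gave 680 an unadjusted p under 0.05 and 9 of the 34 were tested. Same-numbered knockout arrays deviated from their group means with correlations of 0.123, -0.027 and 0.086, and same-numbered knockout and wild type arrays of a stage with 0.034, 0.225 and 0.241 at E9.0 and 0.255, 0.067 and 0.401 at E10.5. As not every pair was over 0.1, the numbers were not taken as pairs; the replicate 3 arrays did deviate together within a stage. Changes of sign arose in values that did not pass: C2 at -0.04 within replicates 1 and 2 and -0.057 with the most variable probe set, Hbb-y at 0.077 with the latter, Lypd8 at -0.145 within replicates 1 and 2. Without 1 array Abcb1b ranged from -0.092 to 0.123, C2 from -0.012 to 0.228, Hba-a1 from -0.063 to 0.188, Lypd8 from -0.078 to 0.277 and Naip6 from -0.102 to 0.0033. The called rise of Msmo1 became -0.053 with the mean of its probe sets. Over named genes and alternatives, 141 stage changes fell short of the threshold and 3848 kept direction and call; for the differences, alternatives added after seeing the data, these were 225 and 498. The cause was not tested. Dim probe sets limit what changes can be seen.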

Other observations

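Gene families outside the lists, chosen after their values were seen, are given beside the shares over all genes, of which 14.4% rose and 9.17% fell in the knockout. Of 14 intraflagellar transport genes (Ift), which build cilia, 8 rose and 0 fell in the knockout, with a median of 0.52, and 9 rose in the wild type. Of 47 translation initiation genes (Eif) 13 fell and 3 rose, of 19 nucleoporin genes (Nup) 7 fell and 1 rose, and of 25 RNA polymerase subunit genes (Polr) 6 fell and 0 rose. In the wild type 12, 6 and 6 of them fell. Of 336 zinc finger genes (Zfp) 77 rose and 22 fell in the knockout, with 56 and 19 in the wild type. Of 347 solute carrier genes (Slc) 44 rose and 45 fell, of 37 centrosomal genes (Cep) 12 rose and 2 fell, and of 18 CC chemokine genes (Ccl) 7 rose and 0 fell. Of these families limma called 2 genes different between the genotypes, both of the Ccl family, of 34 over all genes.

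Of 617 genes on the X chromosome 141 rose in the knockout (22.9%) against 14.4% of all genes, and 19.6% rose in the wild type. The pools' sexes are not labelled.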
